A study of Mus musculus with 10 samples.

Results

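The nuclear pore complex is the channel through which all traffic between nucleus and cytoplasm passes, and the transcripts of 30 genes that encode its proteins were followed in mouse macrophages with and without WASp, unconfined and confined. The 30 genes were taken from a list of named nucleoporins. All 30 had a row in the deposited table, and all 30 had a mean of at least 10 normalized read counts over the 10 libraries, as did 12455 of the 57010 gene identifiers in all. A normalized read count is the number of reads of a gene divided by 1 scaling factor per library.

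The cells were primary bone marrow-derived macrophages (BMDM), grown for 7 days from femur marrow with 20 ng/mL of recombinant macrophage colony-stimulating factor. WT cells came from wild-type mice and WKO cells from mice that lack WASp, the product of Was and an activator of branched actin assembly in blood cells. Confined cells were pressed to a height of 3 µm for 1 h with silicone micropillars, and unconfined cells were the controls. There were 2 WT unconfined libraries (replicates 1 and 3), 3 WT confined libraries (replicates 2, 3 and 6), 2 WKO unconfined libraries (replicates 1 and 3) and 3 WKO confined libraries (replicates 1, 2 and 5). Values below are given in this order. The strain, the Was allele, the number of mice and whether unconfined cells went through the device are not given in the labels used here. Nor do the labels say that replicates came from separate mice or cultures, so p-values measure only the spread between these samples, which may be technical.

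Nuclear pores are built from many copies of each nucleoporin. A Y-shaped complex forms the outer rings, an inner ring lines the membrane, and membrane proteins anchor both. Nucleoporins rich in phenylalanine-glycine (FG) repeats fill the channel and bind transport receptors, while filaments on the cytoplasmic face and a basket on the nuclear face take part in the release and capture of cargo. Pores sit where the inner and outer nuclear membranes fuse, and new pores can be inserted into the envelope of cells that are not dividing, a path in which POM121 and NUP153 are known to act early.

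Libraries held between 13295701 and 19329908 reads, and 3 reads, taken as the detection floor, correspond to 2.35 to 3.59 normalized read counts, with only counting error covered. Was stood at 1308 and 1639 in the WT unconfined libraries, 1618, 1569.6 and 1649 in the WT confined libraries, 154 and 141 in the WKO unconfined libraries and 98.9, 96.9 and 125 in the WKO confined libraries, every WKO library lying far below every WT library. The 8 macrophage markers summed to 179561 to 208283 normalized read counts in WT and 241895 to 314561 in WKO libraries. Markers of other cells were also present: the 10 neutrophil and progenitor genes summed to 2943 to 11510 in WT and 8018 to 31209 in WKO libraries, the 10 stromal genes to 155 to 1519 and 658 to 8059, and the 8 B-lineage genes to 423 to 1065 and 1834 to 6538. The 5 T and NK cell genes reached at most 18.2 (Trac at 0 throughout). In bulk RNA, fewer cells of a type and less RNA per cell cannot be told apart.

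All 30 nucleoporin transcripts were detected in every library, the lowest value being 65.9 normalized read counts (55 reads, Nup43). To compare genes, the mean over the 10 libraries was divided by the length of the longest protein-coding transcript, giving normalized read counts per kb. Which transcript form was expressed and how evenly reads covered it were not examined, so the order of genes is approximate. On this scale Sec13, which is shared between the Y complex and the COPII coat of secretory vesicles, was highest at 723 per kb. The basket scaffold gene Tpr followed at 441, then Nup62 of the central channel at 424, Ranbp2 of the cytoplasmic filaments at 374 and Nup88, which anchors the cytoplasmic export platform, at 363. Neighbours in this order had ranges over libraries that overlapped, except that every Sec13 value lay above every Tpr value and, at the other end, every Nup43 value above every Nup210 value.

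Nup210, a membrane glycoprotein of the pore, stood lowest of all at 30.4 per kb. The next lowest were the Y complex genes Nup43 at 81.1 and Nup37 at 89.9 and the inner ring gene Nup35 at 98.0. By role, the median was 275 per kb for the 3 basket genes, 261 for the 6 genes of the cytoplasmic face, 184 for the 5 inner ring genes, 168 for the 3 membrane genes, 140 for the 3 channel genes and 131 for the 9 genes of the Y complex with Ahctf1, which encodes the chromatin-binding Elys. Nup98, the FG protein that links the scaffold to the channel, stood at 220. The Y complex alone spanned 81.1 to 723 per kb.

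**Figure D1:**
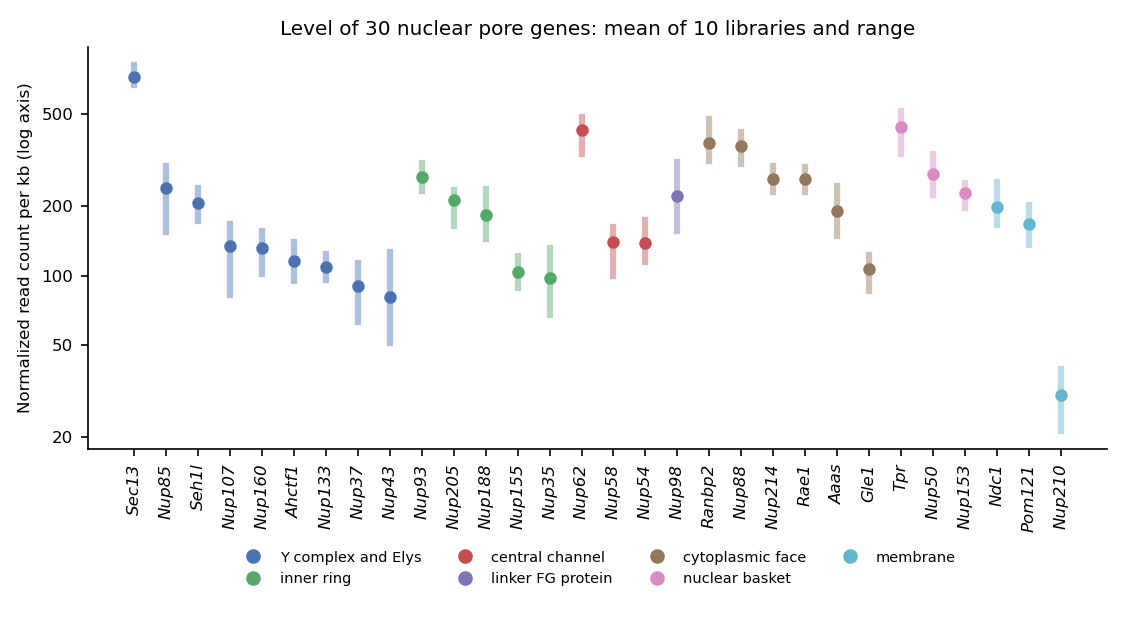
Mean normalized read count per kb of transcript (log axis) of the 30 genes by role, with the range over the 10 libraries. Sec13 is highest at 723 per kb and Nup210 lowest at 30.4 per kb.

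Most of these transcripts varied little. The ratio of the highest to the lowest of the 10 libraries had a median of 1.52-fold and ran from 1.21-fold (Sec13) to 2.46-fold (Nup43). It was under 2-fold for 28 of 30 members (93.3%), against 58.4% of all tested genes, whose median was 1.82-fold. The median SD within groups was 0.164 on the log2 scale for the members and 0.231 for all tested genes. The members also had more reads behind them: the median of their means was 796 normalized read counts against 357 for all tested genes, and the ranges were not matched on level.

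A pair of libraries stood apart for these genes. WKO confined replicate 5 held the lowest value of 11 of the 30 members, among them Nup62, Sec13, Nup85, Nup107 and Nup133, while it held the lowest value of 19.1% of all tested genes. In that library 8 of 12 proliferation markers were also at their lowest and 9 of 10 stromal markers at their highest, the stromal sum being 8059 against 658 and 2606 in the other WKO confined libraries. The same library held the highest value of 5 of 8 macrophage markers, of 3 of the 30 members and of 21.9% of all tested genes. WT unconfined replicate 1 held the highest value of 11 members, among them Nup88, Nup214, Nup205 and Nup160, against 10.8% of all tested genes. The part of these markers in the results was not tested, and values without these libraries are given where they move a result.

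**Figure D2:**
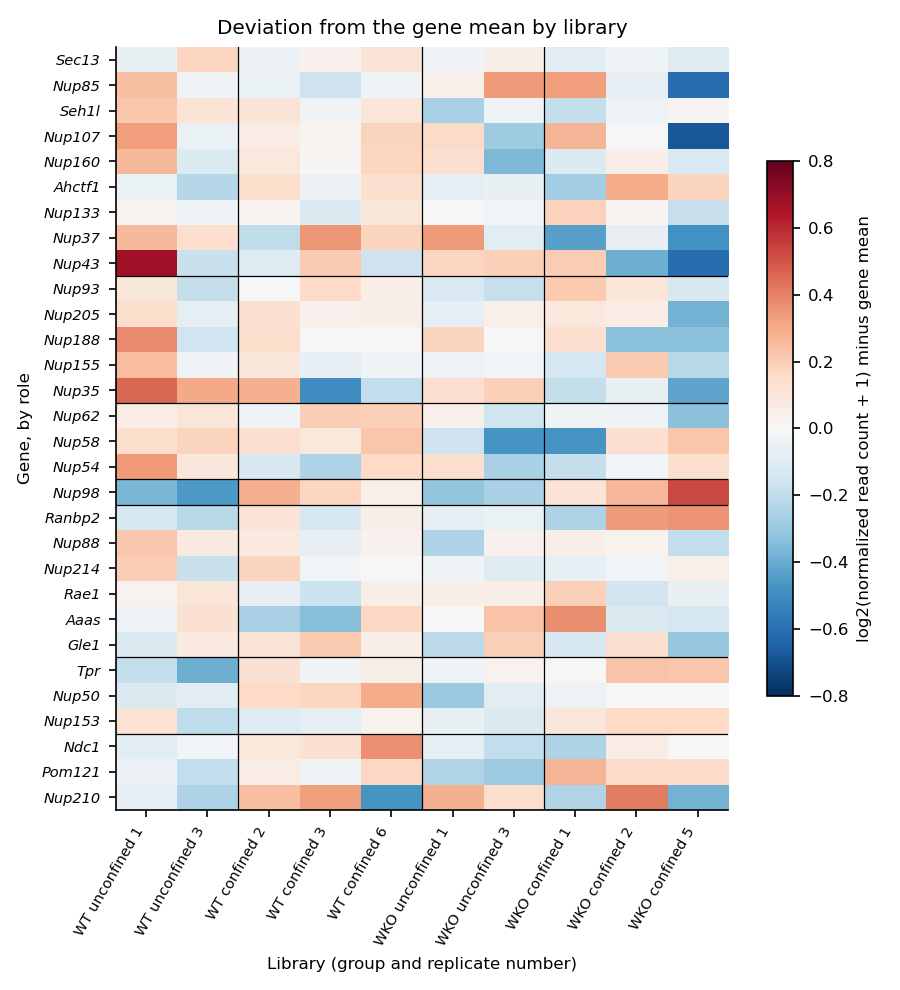
Deviation of log2(normalized read count + 1) from each gene's mean, with 1 column per library and 1 row per gene, grouped by role. The Nup98 row is blue in all 4 unconfined libraries and red in all 6 confined ones; the WKO confined 5 column is blue for many genes of the Y complex and inner ring.

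Confinement was compared with the unconfined state as the average of the WT and WKO effects. Nup98 rose 1.5-fold and Pom121 rose 1.25-fold; no member fell by the test. Differences are given as log2 fold changes on the log2(normalized read count + 1) scale, from limma fitted to all genes with 1 mean per group, and a gene was called at a Benjamini-Hochberg adjusted p under 0.05 over the 12455 tested genes. Thus 2 of 30 members (6.67%) were called, against 6.21% of all tested genes; both members were higher, against 4.13% of all tested genes in that direction and 2.07% in the other. With upper-quartile scaling the split over all tested genes was 392 higher and 446 lower, in place of 515 and 258. The median log2 fold change was -0.02 over the members and -0.02 over all tested genes, and 14 of 30 members had values above 0. At an unadjusted p under 0.05 the count was 5 of 30 members, against 21.6% of all tested genes. The stromal sum was 756 to 1519 in WT unconfined and 155 to 628 in WT confined libraries. In WKO it was 1957 to 2234 in unconfined and 658 to 8059 in confined libraries. No stromal marker was called for averaged confinement in limma (median log2 fold change -0.88). Among the neutrophil and progenitor markers 1 was called lower (median -1.28), and so was 1 B-lineage marker (median -1.28). Of the macrophage markers 1 was called higher (median 0.07). The part of all these markers in the differences was not tested.

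Nup98 encodes the linker FG protein and also NUP96, which can be made together from 1 precursor. Its reads were counted for the whole gene and not split between these proteins. Its normalized read counts were 1116 and 1047 in the WT unconfined libraries, 1754, 1622 and 1482 in the WT confined libraries, 1161 and 1204 in the WKO unconfined libraries and 1551, 1731 and 2078 in the WKO confined libraries. All 6 confined libraries lay above all 4 unconfined libraries, with the highest value in WKO confined replicate 5. The group means were 1082 ± 48.9 (SD, n = 2), 1619 ± 136 (SD, n = 3), 1182 ± 30.1 (SD, n = 2) and 1787 ± 268 (SD, n = 3). The averaged log2 fold change was 0.58 (SE 0.096, 95% interval 0.37 to 0.79, adjusted p = 0.00422) in limma. It stayed past the threshold under all 21 alternatives to the processing, with values from 0.49 to 0.63 and a highest adjusted p of 0.0443 in limma, edgeR or DESeq2.

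The rise of Nup98 was modest among confinement responses: 515 genes were called higher, with a median log2 fold change of 0.82, and 362 of them exceeded Nup98. Within WT alone the log2 fold change was 0.58 (SE 0.14, adjusted p = 0.0719), and within WKO alone it was 0.58 (SE 0.14, adjusted p = 0.0572), both from limma and both short of the threshold. Without WKO confined replicate 5 or replicate 1, the WT value passed; with limma on the WT libraries alone, with array weights and in DESeq2 it passed too. The interaction, which is the WKO effect minus the WT effect, was 0.01 (SE 0.19, 95% interval -0.41 to 0.42, adjusted p = 0.999) for Nup98.

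Pom121, a membrane protein that anchors the pore, had normalized read counts of 899.6 and 811 in the WT unconfined libraries, 968, 907 and 1042 in the WT confined libraries, 787 and 759.8 in the WKO unconfined libraries and 1122, 1035 and 1029 in the WKO confined libraries. All 6 confined values exceeded all 4 unconfined values, though the lowest confined value (WT replicate 3) lay only just above the highest unconfined one (WT replicate 1). The averaged log2 fold change was 0.32 (SE 0.083, 95% interval 0.14 to 0.50, adjusted p = 0.0433) in limma. The call was fragile: it held in 9 of 21 alternatives, with values from 0.23 to 0.36 and adjusted p between 0.0128 and 0.311, and was lost when any 1 of 8 libraries was left out. These were both WT unconfined, all 3 WT confined and both WKO unconfined libraries and WKO confined replicate 2. It was also lost with no filter on low values (0.0614), with upper-quartile scaling (0.134), without the mean-variance trend (0.0806) and with a replicate block (0.311), each an adjusted p from limma. The block left only 2 residual degrees of freedom.

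The count of Pom121 carries a further limit. On GRCm38, in GENCODE M21, Pom121 lies at chr5:135376141-135394546 on the minus strand, and 665 bases of its exons (11.9%) overlap Nsun5 on the opposite strand. Whether counting used strand is not given in the sources used here. Nsun5, an RNA methyltransferase gene, had a mean of 94.0 normalized read counts and an averaged confinement log2 fold change of -0.43 (SE 0.20, adjusted p = 0.239) in limma, which was not called.

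**Figure D3:**
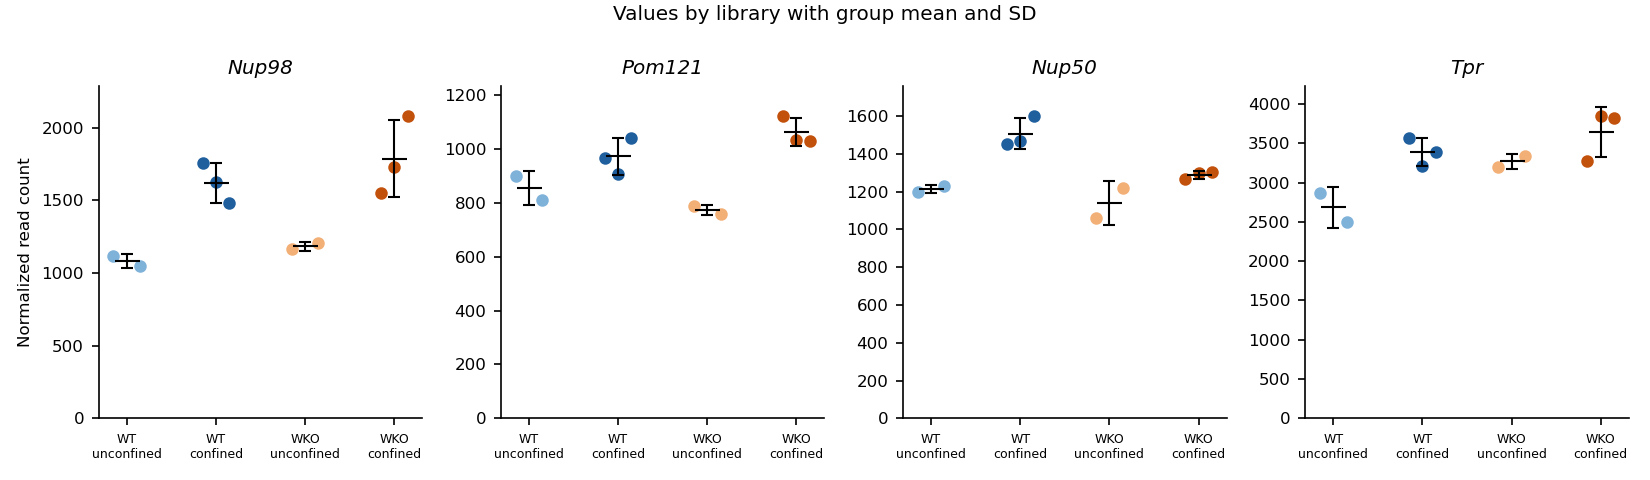
Normalized read counts of Nup98, Pom121, Nup50 and Tpr in each library (points), with group mean and SD (bars); axes start at 0. For Nup98, Pom121 and Nup50 the 6 confined libraries sit above the 4 unconfined ones, while for Tpr the WKO groups overlap.

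The nuclear basket genes had averaged log2 fold changes above 0 in 3 of 3 cases, from 0.11 to 0.25, with none called (0.02 to 0.16 with upper-quartile scaling). Nup50, a basket FG protein that helps to release importins, had normalized read counts of 1199 and 1229 in the WT unconfined libraries, 1453, 1468 and 1599 in the WT confined libraries, 1059.6 and 1221 in the WKO unconfined libraries and 1266, 1297 and 1302 in the WKO confined libraries. Its confined values all exceeded its unconfined values, and the averaged log2 fold change was 0.24 (SE 0.078, 95% interval 0.07 to 0.42, adjusted p = 0.0913) in limma. Tpr had normalized read counts of 2869.8 and 2501 in the WT unconfined libraries, 3569.6, 3209.6 and 3386 in the WT confined libraries, 3202 and 3336 in the WKO unconfined libraries and 3276, 3845 and 3819.8 in the WKO confined libraries. In WT the groups did not overlap, while in WKO the confined replicate 1 fell between the unconfined values. The averaged log2 fold change of Tpr was 0.25 (SE 0.08, adjusted p = 0.0983) in limma. Both genes were called without WKO confined replicate 1 and with array weights, which give each library a weight from its own spread, as was Ranbp2; in these fits 14.5% and 17.8% of all tested genes were called.

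Nup153, the basket protein that binds the membrane and recruits Nup50, had normalized read counts of 1498 and 1201 in the WT unconfined libraries, 1282, 1308 and 1405 in the WT confined libraries, 1324 and 1272 in the WKO unconfined libraries and 1472, 1542 and 1542 in the WKO confined libraries. Its values in WKO did not overlap between conditions, while in WT unconfined replicate 1 was the highest of all WT values and replicate 3 the lowest. The log2 fold change of Nup153 was -0.01 (SE 0.12, adjusted p = 0.984) in WT and 0.23 (SE 0.12, adjusted p = 0.415) in WKO, in limma. Nup50, Pom121 and Nup98 were thus the only members whose 6 confined values all exceeded the 4 unconfined values, 3 of 30 against 4.46% of all tested genes in that direction. No member showed the reverse, against 2.93%.

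These 3 members are shown with the 250 bases before their RefSeq start (GRCm38.p6), since these were the members with higher values in every confined than in every unconfined library. Capitals mark matches, on either strand, to motifs of factors that act at promoters: CCAAT (the CCAAT box), GGGCGG (the GC box of Sp factors), TGACG (the core of the CRE, bound by CREB and ATF proteins) and GCATGCGC (NRF1). The stretches are chr7:102210167-102210416 on the minus strand for Nup98, chr5:135394547-135394796 on the minus strand for Pom121 and chr15:84923178-84923427 on the plus strand for Nup50, each 5′ to 3′.
Nup98: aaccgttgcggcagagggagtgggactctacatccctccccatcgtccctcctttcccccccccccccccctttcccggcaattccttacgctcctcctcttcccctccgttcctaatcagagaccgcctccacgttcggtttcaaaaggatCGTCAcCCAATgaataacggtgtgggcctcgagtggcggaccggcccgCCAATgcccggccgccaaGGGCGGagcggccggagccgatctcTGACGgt
Pom121: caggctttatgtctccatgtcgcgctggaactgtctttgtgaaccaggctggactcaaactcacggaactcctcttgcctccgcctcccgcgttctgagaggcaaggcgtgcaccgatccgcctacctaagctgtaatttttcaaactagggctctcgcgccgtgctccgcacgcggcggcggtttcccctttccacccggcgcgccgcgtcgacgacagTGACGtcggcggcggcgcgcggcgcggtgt
Nup50: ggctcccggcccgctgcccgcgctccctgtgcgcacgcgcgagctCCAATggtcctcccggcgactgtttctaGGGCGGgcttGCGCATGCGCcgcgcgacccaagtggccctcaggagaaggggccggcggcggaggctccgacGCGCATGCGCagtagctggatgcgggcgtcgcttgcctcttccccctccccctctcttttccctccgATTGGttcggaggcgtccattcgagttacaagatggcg

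Nup98 carried 2 CCAAT boxes, a GC box and 2 CRE cores, the nearest of which ended 3 bases before the start. Pom121 carried a single CRE core, 30 to 26 bases before the start. Nup50 carried 2 CCAAT boxes, a GC box and 4 NRF1 matches, which formed 2 pairs on opposite strands over shared bases. Among the motifs searched, none was present in all 3. Nup98 has a further RefSeq start downstream, whose upstream stretch is not printed.

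A promoter was found for 26 of the 30 members, 3 of which had 2 windows. A member was counted once if any of its windows matched, while the background counted each window, so the 2 shares differ in unit. The CRE core was present in 13 of 26 (50%), against 17.8% of 32851 windows of the same length, and the GC box in 16 (61.5%) against 32.7%. The ETS motif CCGGAAG was in 6 (23.1%) against 6.91%, the E-box CACGTG in 4 (15.4%) against 6.02%, the NRF1 motif in 3 (11.5%) against 2.26% and the CCAAT box in 9 (34.6%) against 33.8%. The AP-1 motif TGANTCA had no match in the 26, against 6.75% of all windows. The NF-kB and SRF motifs had none either, but both were searched in narrow forms, the SRF motif as a single fixed sequence. These forms matched only 0.356% and 0.0609% of all windows. A match in 26 promoters was therefore unlikely from the start, and its absence does not show that NF-kB or SRF sites are lacking. The members' windows were richer in GC, with a median of 63.2% against 52.4%. A match describes letters only.

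The Nup98 stretch also holds the start of Pgap2, a gene for the maturation of GPI anchors that is read in the opposite direction. The Pgap2 start lies 32 bases from the Nup98 start in GENCODE M21. That Nup98 start lies within the printed stretch, whereas the motif distances above were counted from the RefSeq start. Pgap2 had normalized read counts of 355 and 416 in the WT unconfined libraries, 416, 412 and 462 in the WT confined libraries, 414 and 346 in the WKO unconfined libraries and 337, 374 and 318 in the WKO confined libraries. Its confined and unconfined values overlapped, and its averaged log2 fold change was 0.01 (SE 0.11, 95% interval -0.23 to 0.24, adjusted p = 0.982) in limma. Nup98 lies at chr7:102119398-102210176 on the minus strand of GRCm38, and no exon of another gene overlaps its exons.

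Among the genes listed under the Y complex and the inner ring, none was called after confinement. Nup98, whose gene also encodes NUP96, was listed apart from both. In the Y complex 3 of 9 averaged log2 fold changes lay above 0, with a median of -0.05, and in the inner ring 1 of 5, with a median of -0.07. The inner ring gene Nup35, which binds membrane directly, had normalized read counts of 206 and 184 in the WT unconfined libraries, 182, 106 and 130.1 in the WT confined libraries, 164 and 170.3 in the WKO unconfined libraries and 131, 143 and 111 in the WKO confined libraries. Its averaged log2 fold change was -0.45 (SE 0.17, 95% interval -0.82 to -0.08, adjusted p = 0.147) in limma, the lowest among the members, and WT confined replicate 2 lay among the unconfined values. Nup35 shares 53.7% of its transcript, at 99.9% identity, with the predicted gene Gm4353, so its count is less certain. The channel genes had a median of -0.02 (1 of 3 above 0), and the cytoplasmic face -0.00 (3 of 6 above 0). With upper-quartile scaling, which moved the median of all tested genes to -0.10, 1 of 9 Y complex and 1 of 6 cytoplasmic genes lay above 0.

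Within WT alone, 0 of 30 members were called by limma, against 1.16% of all tested genes; 3 of 30 had an unadjusted p under 0.05 against 12.2%, edgeR called 0 and DESeq2 called 1 (Nup98), against 2.69% of all tested genes in DESeq2. Groups did not overlap for 9 members, against 35.9% of all tested genes: 6 were higher in confined cells, against 18.3%, and 3 were lower, against 17.7%. Ndc1, a membrane protein needed for pore assembly, had normalized read counts of 855 and 891 in the WT unconfined libraries, 959, 987 and 1169 in the WT confined libraries, 858 and 789.7 in the WKO unconfined libraries and 762, 945 and 905 in the WKO confined libraries, with the WT confined values all above the WT unconfined ones and a log2 fold change of 0.24 (SE 0.14, adjusted p = 0.52) in limma. Within WKO alone, 0 of 30 members were called by limma, against 1.72%; 2 of 30 had an unadjusted p under 0.05 against 14.1%, edgeR called 0 and DESeq2 called 2 (Nup98 and Pom121), against 3.94% in DESeq2. Without WKO confined replicate 1, limma called 3 (Nup58, Nup98 and Ranbp2), which is 10.0% of the members against 8.37% of all tested genes in that fit. Groups did not overlap for 6 members, against 28.3%, with 4 higher against 14.5% and 2 lower against 13.8%. Pom121 had a log2 fold change of 0.46 (SE 0.12, adjusted p = 0.0882) in WKO and 0.18 (SE 0.12, adjusted p = 0.581) in WT, in limma.

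**Figure D4:**
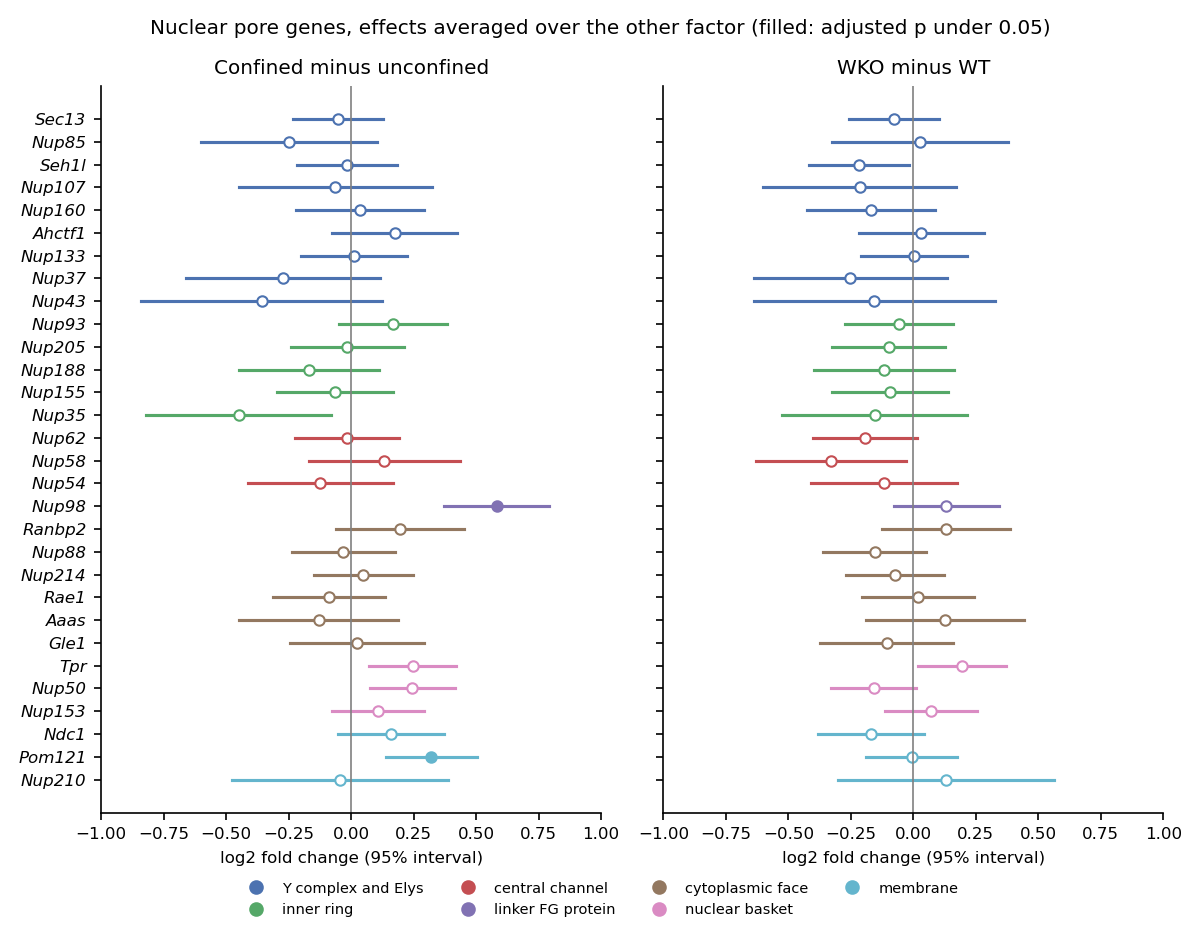
Averaged log2 fold changes of the 30 members with 95% intervals, for confinement (left) and loss of WASp (right), coloured by role; filled points have an adjusted p under 0.05. Only Nup98 and Pom121 are filled, both for confinement.

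Loss of WASp was compared with WT in each condition and as the average over both. No member passed the test in any of these comparisons. In unconfined cells limma called 0 of 30 against 0.145% of all tested genes, with 2 of 30 at an unadjusted p under 0.05 against 9.6%. In confined cells it called 0 of 30 against 2.59%, with 1 of 30 at an unadjusted p under 0.05 against 16.8%. For the average it called 0 of 30 against 5.57%, with 3 of 30 at an unadjusted p under 0.05 against 20.2%. In these 3 comparisons edgeR and DESeq2 also called 0.

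Small differences to the lower side were frequent: 22 of 30 log2 fold changes lay below 0 in unconfined cells (median -0.07), 21 in confined cells (median -0.08) and 20 for the average (median -0.10), while the medians of all tested genes were 0.00. The unconfined median was -0.0054 without WT unconfined replicate 1 and -0.14 without WT unconfined replicate 3. Without WKO confined replicate 5 the median in confined cells was 0.01, and without WT unconfined replicate 1 the averaged median was -0.01. The averaged log2 fold changes of the inner ring lay below 0 in 5 of 5 genes, from -0.15 to -0.06, and those of the channel in 3 of 3, from -0.33 to -0.12. In the Y complex 6 of 9 lay below 0 (median -0.16), on the cytoplasmic face 3 of 6 (median -0.03), among the membrane genes 2 of 3 (median -0.01) and in the basket 1 of 3 (median 0.07), while Nup98 stood at 0.13. The 95% intervals of the average lay within 1 log2 unit of 0 for all 30 members, the widest being that of Nup43.

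Seh1l, a Y complex protein that also acts in nutrient sensing, had normalized read counts of 848 and 787 in the WT unconfined libraries, 783, 714 and 779 in the WT confined libraries, 609.7 and 713 in the WKO unconfined libraries and 638, 707 and 740.5 in the WKO confined libraries. Every WKO unconfined value lay below every WT unconfined value, while the confined groups overlapped. Its log2 fold change was -0.31 (SE 0.14, adjusted p = 0.521) in unconfined cells and -0.22 (SE 0.091, adjusted p = 0.203) for the average, in limma.

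Nup58, which with Nup54 and Nup62 forms the channel, had normalized read counts of 598 and 611 in the WT unconfined libraries, 592, 574 and 631 in the WT confined libraries, 482 and 390.2 in the WKO unconfined libraries and 389.9, 594 and 633 in the WKO confined libraries. Of the 5 WKO values, 3 lay far below the WT range (both unconfined libraries and confined replicate 1), and the other 2 lay within or above it. The log2 fold change was -0.48 (SE 0.21, adjusted p = 0.505) in unconfined cells and -0.33 (SE 0.14, adjusted p = 0.201) for the average, in limma. Nup62 had normalized read counts of 1197 and 1226 in the WT unconfined libraries, 1124, 1319.7 and 1310.3 in the WT confined libraries, 1184 and 1029 in the WKO unconfined libraries and 1119.6, 1124 and 917 in the WKO confined libraries. Among its WKO confined values 2 were lower than every WT confined value and the other was level with the lowest of them. Its log2 fold change in confined cells was -0.25 (SE 0.12, adjusted p = 0.325) in limma. Exons of Nup62 overlap those of Il4i1 and Atf5, so reads there may be shared. Exons of Nup58 share 1756 bases (13.8%) with those of Nupl1 on the same strand. Nupl1 had a mean of 0 normalized read counts, and how reads in shared exons were counted is not given.

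Tpr, the basket scaffold, was the member with the smallest p in unconfined cells and had values above those of WT there, as listed with the basket genes. Its log2 fold change was 0.29 (SE 0.12, adjusted p = 0.494) in unconfined cells and 0.20 (SE 0.08, adjusted p = 0.194) for the average, in limma. With array weights the average was called. In confined cells the Tpr groups overlapped. For Nup50 the sign was the other way, with all 3 WKO confined values below all WT confined values and a log2 fold change of -0.22 (SE 0.099, adjusted p = 0.278), and Ndc1 had -0.25 (SE 0.12, adjusted p = 0.327), both in limma.

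Groups did not overlap between genotypes for 10 members in unconfined cells, against 44.9% of all tested genes, with 4 higher in WKO against 22.2% and 6 lower against 22.7%. In confined cells they did not overlap for 3 members, against 21.1%. Nup153 was higher in WKO, against 10.7% of all tested genes, and Nup50 and Ndc1 were lower, against 10.4%. Over all 10 libraries 0 members separated by genotype, against 6.71%. The macrophage, neutrophil, stromal and B-lineage sums given above differed between genotypes as well. For averaged WASp loss limma called 3 macrophage, 4 neutrophil and progenitor, 2 stromal and 2 B-lineage markers, against 5.57% of all tested genes. In confined cells it called 3 macrophage, 4 stromal and 3 B-lineage markers, against 2.59%. All of these were higher in WKO. The part of these markers in the differences of the members was not tested. The proliferation markers, which summed to 25206 to 30369 per library, were called in none of the 7 comparisons.

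Whether confinement acted differently in WKO and WT was tested as the interaction. Limma called 0 of 30 members, and 0.0% of all tested genes; 0 of 30 members had an unadjusted p under 0.05, against 2.07%, and edgeR and DESeq2 called 0. The smallest p values were those of Pom121, with 0.27 (SE 0.17, 95% interval -0.09 to 0.63, adjusted p = 0.999), Nup153, with 0.24 (SE 0.17, 95% interval -0.13 to 0.61, adjusted p = 0.999), and Nup54, with 0.33 (SE 0.27, 95% interval -0.25 to 0.91, adjusted p = 0.999). Nup54, a channel protein, had normalized read counts of 408 and 343 in the WT unconfined libraries, 295, 271 and 359 in the WT confined libraries, 352 and 268 in the WKO unconfined libraries and 282, 317 and 353 in the WKO confined libraries. Its groups overlapped within each condition and genotype, and its count is less certain because 53.3% of its transcript is shared, at 98.0% identity, with Gm15790. The intervals lay within 1 log2 unit of 0 for 27 of 30 members and were wider for the other 3. The comparisons share libraries, so agreement between them is not independent.

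The transport machinery that uses the pore was described from a list of 49 symbols, of which 47 were tested; Nup42 had no row under that name, and Nup62cl was at 0. After confinement, averaged over genotypes, 1 of 47 (2.13%) was called by limma and it was higher, against 6.21% of all tested genes called and 4.13% called higher. The log2 fold changes of 28 of 47 lay above 0, with a median of 0.02, against 47.3% of all tested genes. It was Alyref, an adaptor that loads mRNA onto the export receptor, with normalized read counts of 553 and 579 in the WT unconfined libraries, 681, 826 and 814 in the WT confined libraries, 625 and 517 in the WKO unconfined libraries and 779.9, 753 and 657 in the WKO confined libraries. All 6 confined values lay above all 4 unconfined values, as for 4.46% of all tested genes, WKO confined replicate 5 being the closest. The log2 fold change was 0.40 (SE 0.10, 95% interval 0.18 to 0.62, adjusted p = 0.041) in limma. This call was not examined under the alternatives to the processing, which were read for the members only. None of the 16 import receptors, 7 export receptors, 7 Ran cycle genes or 2 SUMO proteases was called.

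For loss of WASp, 1 of 47 (2.13%) was called by limma for the average, against 5.57% of all tested genes, and it was lower: Ipo5, an importin that carries ribosomal proteins and histones, with normalized read counts of 4435 and 4072 in the WT unconfined libraries, 4625, 4399 and 4688 in the WT confined libraries, 3380.0 and 3563 in the WKO unconfined libraries and 4052, 3721 and 3719 in the WKO confined libraries. All 5 WKO values lay below all 5 WT values, and 6.71% of all tested genes separated by genotype in either direction. The log2 fold change was -0.27 (SE 0.07, 95% interval -0.43 to -0.12, adjusted p = 0.0428) in limma. Like that of Alyref, this call was not examined under the alternatives. In this comparison 9 of 47 log2 fold changes lay above 0 (median -0.13), among them 1 of 16 import receptors, 1 of 7 export receptors, 0 of 7 Ran cycle genes and 5 of 12 mRNA export genes. Among all tested genes, 50.7% lay above 0. The signs and the median of the pathway list were not examined under the alternatives either. None of the 47 was called in unconfined cells, against 0.145% of all tested genes, where the smallest p was that of Ipo7 at -0.41 (SE 0.14, adjusted p = 0.331) in limma. None was called in confined cells, against 2.59%, where the smallest p was that of Ipo5 at -0.26 (SE 0.088, adjusted p = 0.162) in limma. Nor was any called for confinement within WT, against 1.16%, with Alyref first at 0.45 (SE 0.14, adjusted p = 0.215) in limma. The same held within WKO, against 1.72%, with the SUMO protease Senp2 first at 0.34 (SE 0.12, adjusted p = 0.211), and for the interaction, against 0.0%, with Eny2 first at 0.50 (SE 0.27, adjusted p = 0.999), in limma.

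The remaining 20 members are given by range. None of them was called in any of the 7 comparisons. Their averaged log2 fold changes for confinement ran from -0.45 (Nup35) to 0.19 (Ranbp2), and for loss of WASp from -0.25 (Nup37) to 0.13 (Nup210).

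In the Y complex, Sec13 ran from 907 to 1099 normalized read counts over the 10 libraries and was the steadiest member. Nup85, which forms a short arm of the Y, ran from 343 to 663, and Nup107, Nup133 and Nup160 of its stem and long arm ran from 256 to 519, from 557 to 719 and from 577 to 887. Nup85 and Nup107 were both lowest in WKO confined replicate 5, where they lay well below the other libraries. Nup43, the member with the fewest reads, ran from 65.9 to 162, with its highest value in WT unconfined replicate 1 and its lowest in WKO confined replicate 5. Ahctf1 ran from 803 to 1195, with averaged log2 fold changes of 0.17 (SE 0.11, adjusted p = 0.407) for confinement and 0.03 (SE 0.11, adjusted p = 0.923) for WASp loss in limma. Nup37 had normalized read counts of 135 and 124 in the WT unconfined libraries, 97.5, 144 and 128 in the WT confined libraries, 143 and 106 in the WKO unconfined libraries and 83.2, 107 and 80.3 in the WKO confined libraries. Its groups overlapped in every comparison, and its log2 fold change in confined cells, -0.44 (SE 0.22, 95% interval -0.93 to 0.05, adjusted p = 0.357) in limma, was the lowest of the members for WKO against WT there.

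In the inner ring, the large scaffold proteins have the genes Nup188 and Nup205, which ran from 826 to 1352 and from 1046 to 1497. Nup93, which connects the ring to the channel, ran from 682 to 899.9, and Nup155, which contacts the membrane, from 691 to 957. Their averaged log2 fold changes for confinement were -0.17, -0.02, 0.17 and -0.07 in the order named, and those for WASp loss were -0.12, -0.10, -0.06 and -0.09. None of these differences passed the test in limma.

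On the cytoplasmic face, Ranbp2, a SUMO ligase of the filaments and the largest nucleoporin, had normalized read counts of 3253 and 3051 in the WT unconfined libraries, 3815, 3235 and 3668 in the WT confined libraries, 3397 and 3424 in the WKO unconfined libraries and 2994, 4501 and 4556 in the WKO confined libraries. Its WKO confined values held both the lowest and the highest of all 10 libraries, and its averaged log2 fold change for confinement was 0.19 (SE 0.12, 95% interval -0.06 to 0.45, adjusted p = 0.367) in limma. Nup214 and Nup88, which form the platform for mRNA export factors, ran from 1516 to 1966 and from 746 to 1028. Gle1, an activator of the export helicase, ran from 345 to 493, and Rae1, a partner of Nup98 in mRNA export, from 401 to 516. Rae1 had an averaged log2 fold change for confinement of -0.09 (SE 0.10, 95% interval -0.31 to 0.14, adjusted p = 0.662) in limma, with its sign opposite to that of Nup98. Aaas, the gene for ALADIN, ran from 269.8 to 442, and the membrane gene Nup210 from 150.2 to 278. Nup210 had a log2 fold change of 0.37 (SE 0.31, 95% interval -0.30 to 1.04, adjusted p = 0.784) for WKO against WT in unconfined cells in limma, the highest of the members but with a wide interval.

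Exons of 11 members overlapped those of another gene and 19 did not; for 6 of the 11 the other gene was itself tested. These were Nup214 with Fam78a, Nup35 with Dusp19, Nup62 with Il4i1 and Atf5, Nup88 with Rabep1, Pom121 with Nsun5 and Tpr with Odr4.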

How the data were processed

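RNA from 10 BMDM samples (5 ng each) was made into mRNA libraries, per the labels' protocols. Processing used FastQC, Trim Galore and STAR with builds GRCm38 and mm10, per the submitters' processing notes; the counting tool, annotation and use of strand are not given in the sources used here. The values the authors deposited are normalized read counts, a signal unit. In each library 100% of values were whole multiples of 1 step (tolerance 1e-06), so reads were recovered; size factors recomputed with DESeq2 1.42.0 differed from those deposited by at most 2.89e-15 (relative). Such scaling removes depth, not composition or length. Recovered totals were 13295701 to 19329908 reads.

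Groups came from the labels' titles and treatments. log2(value + 1) of the 12455 genes with a mean of at least 10 was fitted in limma 3.58.1 (R 4.3.3) with 1 mean per group over all 10 libraries (6 residual degrees of freedom), a mean-variance trend and Benjamini-Hochberg adjustment over all tested genes, in 7 comparisons: 4 between groups, the interaction and 2 averages. Since the unconfined groups hold 2 libraries each, the spread is shared over groups. On the recovered reads, edgeR 4.0.16 called 767 genes and limma 773 for averaged confinement. The fit was also run on simulated reads with known changes, and its outcome is not reported or relied on here.

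The members and gene lists were chosen with earlier results of these data known, so no p-value is given for a list. Values by library are given for members that passed in any comparison and for the 3 with the smallest p in each (10 members), beside a few others named for their level or range (Nup35, Nup37, Ranbp2), which were chosen after their values were seen. Of the pathway list, called genes and the gene with the smallest p are named. Positions, exons and transcript lengths came from GENCODE M21 (GRCm38), similar transcripts from blastn 2.17.0 and promoter sequences from RefSeq. Replicates of 1 group differed by more than sampling noise (chi-square per degree of freedom 7.56 to 78.3). Alternatives were pseudocounts of 0.5 and 5, other filters and scalings, array weights, no trend, only the libraries compared, a replicate block, each library left out, edgeR and DESeq2.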

Additional observations from a re-analysis of the deposited data

Results flagged for a closer look

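For 2 members the effect of WASp loss had opposite signs in the conditions: every WKO unconfined library lay below the mean of the WT unconfined libraries and every WKO confined library above the mean of the WT confined ones. For Pom121 the interaction was 0.27 (SE 0.17, adjusted p = 0.999) with an unadjusted p of 0.13, and for Nup153 it was 0.24 (SE 0.17, adjusted p = 0.999) with an unadjusted p of 0.185, both in limma. The difference between conditions was therefore tested and did not pass. For Pom121 the WKO minus WT log2 fold change was -0.14 (SE 0.13) in unconfined and 0.13 (SE 0.11) in confined cells. For Nup153 it was -0.05 (SE 0.13) and 0.19 (SE 0.11).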

How the results depend on the processing

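Groups of 2 and 3 libraries and a shared spread limit these results, and no value changed sign past the threshold under any alternative. With array weights, which give less weight to libraries that scatter, limma called 1 member for WASp loss in confined cells (Ranbp2) and 1 for the average (Tpr), each 3.33% of the members against 15.6% and 14.5% of all tested genes. With the same weights it called 1 for confinement in WT (Nup98), 4 in WKO (Nup58, Nup98, Pom121 and Ranbp2) and 5 for the average (Nup50, Nup98, Pom121, Ranbp2 and Tpr). These were 3.33%, 13.3% and 16.7% of the members, against 3.36%, 13.9% and 17.8% of all tested genes in the same fits. Nup98 was also called in WT (1 member) by DESeq2 and in limma on only the WT libraries, and DESeq2 called 2 in WKO. For averaged confinement, no filter on low values, upper-quartile scaling, no mean-variance trend and the replicate block each left 1 call, Nup98.

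Upper-quartile scaling moved the median log2 fold change of all tested genes to -0.08 in WT, -0.12 in WKO and -0.10 for averaged confinement, and the members' medians to -0.0746, -0.0747 and -0.103. Leaving out 1 library at a time gave 0 to 1 calls for confinement in WT, 0 to 3 in WKO and 1 to 5 for the average, the 3 and the 5 without WKO confined replicate 1. In these fits 0.177% to 3.19%, 0.345% to 8.37% and 2.31% to 14.5% of all tested genes were called, the highest share in WKO and for the average being without that library too. The members' medians then ran from -0.143 to -0.0054 for WASp loss in unconfined cells, -0.134 to 0.0076 in confined cells, -0.151 to -0.011 for the average, -0.084 to 0.138 for confinement in WT and -0.076 to 0.065 for the interaction. In groups left with 1 library, that library was assumed to vary like the others. Other calls of members, and the medians, stayed within 1.5 times or 1 SD of the values reported.

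Same-numbered libraries did not deviate together (correlations from -0.11 to 0.0764), so the numbers were not taken to pair them. In groups of 2 libraries the deviations mirror each other, so these correlations say little there. The replicate block left 2 residual degrees of freedom, against 6 in the main fit, and cannot settle the pairing. It changed the genes called for averaged confinement from 773 to 383 and for WASp loss in unconfined cells from 18 to 245. Across the other alternatives the count for averaged confinement ran from 288 to 2220, and that for averaged WASp loss from 169 to 1804 against 694.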
